A study of Mus musculus with 20 samples.

Results

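The genes described here encode the plasma proteins of complement and coagulation that the liver secretes. They were taken by symbol from a list of 37 names, all 37 were found in the count table, and all 37 passed the filter on low counts among 16071 genes tested of 48440 in the table. Symbols pointed to 38 rows, because Klkb1 has 2 identifiers, of which one held 0 counts in all 20 livers and was not tested. Livers came from wild-type female C57BL/6 mice that were 8 weeks old at the start, in 4 groups of 5. Mice received corticosterone (CORT), the main glucocorticoid of rodents, or its vehicle for 5 weeks. Over the same time they were injected into the peritoneum with a monoclonal antibody that neutralizes acyl-CoA-binding protein (αACBP), or with an IgG2a isotype control antibody. Isotype + Vehicle was thus the control group, Isotype + CORT and αACBP + Vehicle differed from it in a single treatment, and αACBP + CORT received both. Every mouse carried an injected antibody. The series was designed to ask whether neutralizing ACBP prevents the metabolic effects of the glucocorticoid excess known as Cushing's syndrome.

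Complement is a cascade of plasma proteases that tags particles with fragments of C3 and C4 and ends in a pore built from C5 to C9. It is started by antibody (classical pathway), by sugar-binding lectins or by the slow turnover of C3 itself (alternative pathway). Coagulation is a second protease cascade, in which thrombin turns fibrinogen into fibrin, and plasmin later dissolves the clot. Hepatocytes make most of these proteins, whereas properdin (Cfp) is known from myeloid cells and factor D (Cfd) from adipocytes. Several of them, the fibrinogen chains among them, are acute-phase proteins whose transcription rises with interleukin-6 and glucocorticoid.

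Libraries held 14934926 to 20299999 counts on genes, and levels are given as CPM, a gene's counts relative to a TMM-normalized library size. The members took between 2.26% and 3.61% of the gene counts of a liver. Log2 CPM of livers of the same group correlated at 0.869 to 0.958, and the labels number the livers as biological replicates. Fkbp5, a direct glucocorticoid target used as a check of the treatment, had a mean of 39.3 CPM in Isotype + Vehicle and 127.9 CPM in Isotype + CORT (log2 fold change 1.70 ± 0.26 SE, edgeR adjusted p = 0.000722). Of 7 hepatocyte markers, Alb was at 25080 to 111100 CPM and Hnf4a at 277 to 646 CPM, so that Alb weighs most in their sum. Summed CPM of the 7 markers lay between 69340 and 144000 in all livers but 1, αACBP + Vehicle replicate 5, which had 39660. That liver was the lowest of its group in 26 of the 37 members, and Isotype + Vehicle replicate 4, which had 69340, in 23. In bulk liver RNA, fewer cells of a type cannot be told apart from less RNA per cell.

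Levels differed widely between members. Per kilobase of exon in Isotype + Vehicle livers, vitronectin (Vtn) stood at a mean of 961 CPM, kininogen 1 (Kng1) at 928, the fibrinogen γ chain (Fgg) at 901, C3 at 823 and the fibrinogen β chain (Fgb) at 819. Plasminogen (Plg) followed at 533 and the fibrinogen α chain (Fga) at 403. At the low end stood C6 at 4.25, Cfd at 2.58, the lectin pathway protease Masp1 at 0.69 and factor B (Cfb) at 0.517 CPM per kilobase. The length used is that of all annotated exons of a gene merged, 13632 bases for Masp1, which can exceed the length of any 1 transcript. The order of members therefore depends in part on the annotation. For Cfb the level is uncertain, since 65.7% of its exon bases also belong to Gm20547 on the same strand, a row with 0 counts in every liver, and 49.8% lie opposite Nelfe. Cfb held 399 counts in the 20 livers together, and C2, with 38.4% of its exon bases in Gm20547, held 10220. The median coefficient of variation within a group was 17.8% for the members and 26.4% for all genes tested in Isotype + Vehicle, and 24.7% against 35.9% in Isotype + CORT.

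**Figure D1:**
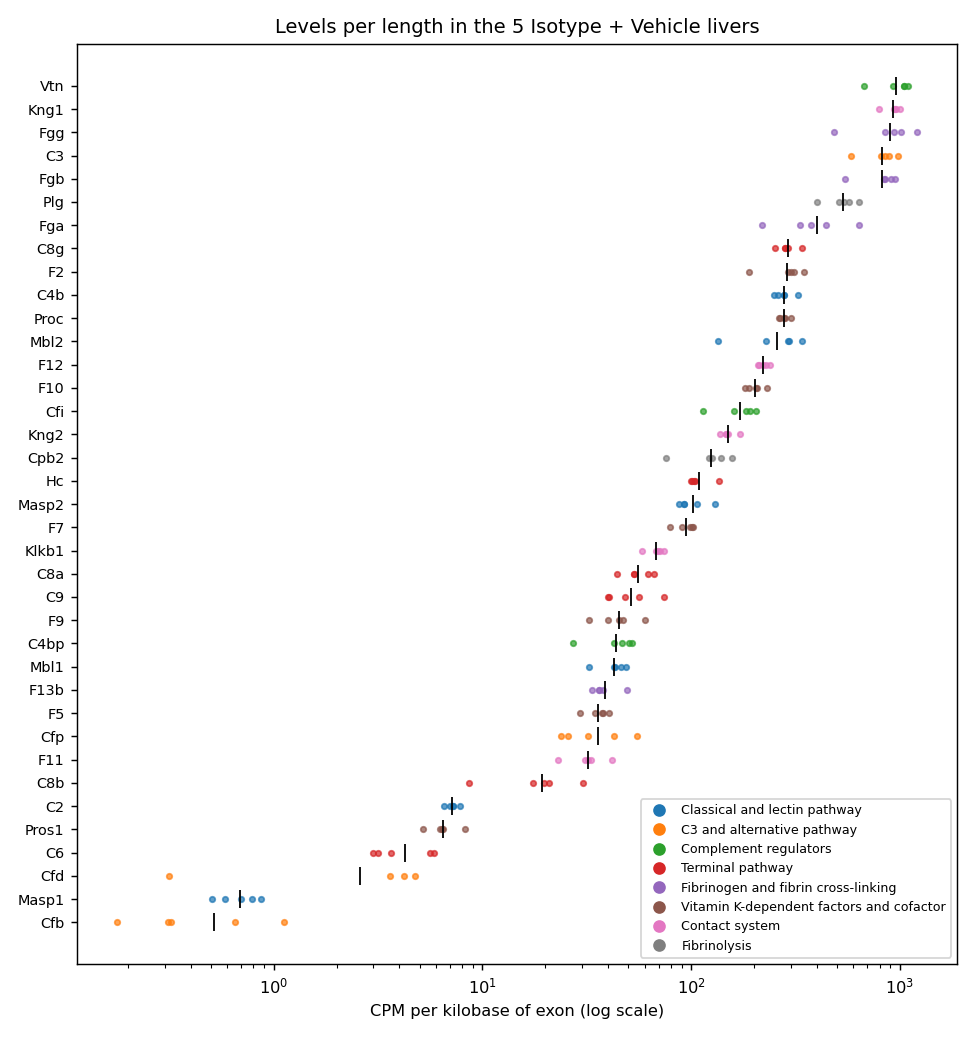
CPM per kilobase of exon (log axis) of each of the 37 members in the 5 Isotype + Vehicle livers, with points for livers, a black tick for the mean and colours for role groups. Levels run from Cfb at a mean of 0.517 to Vtn at 961 CPM per kilobase, and the 1 liver in which Cfd was at 0 cannot be drawn on this axis.

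Members that changed are given with the share of all genes tested beside them. With CORT under the isotype antibody, 2 of 37 members fell, C6 and Cfp, and 0 rose, where 1.86% of all genes tested fell. Both were also past a log2 fold change of 1 in size, a limit that 1.94% of all genes passed in either direction. At an unadjusted p of 0.05 the count was 5 members, against 15.6% of all genes. With αACBP in CORT-treated mice, the same 2 members rose and 0 fell, where 0.635% of all genes rose. Both again passed the limit on the fold change, as did 0.597% of all genes, and 4 members passed at an unadjusted p of 0.05 against 12.5% of all genes. These comparisons share the Isotype + CORT livers, so that a low value in that group enters both.

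In vehicle-treated mice, 1 member rose with αACBP, factor VII (F7), against 2.78% of all genes, and 1 fell, Cfd, against 2.36%. Only Cfd also passed the limit on the fold change there, as did 1.3% of all genes. At an unadjusted p of 0.05, 3 members were higher and 11 lower, against 20.6% of all genes in either direction. With CORT in αACBP-treated mice, edgeR and DESeq2 called 0 members, where edgeR called 0.305% of all genes and DESeq2 1.43%. At an unadjusted p of 0.05 the count there was 15 members (14 higher, 1 lower) against 12.7% of all genes. This comparison shares the αACBP + Vehicle livers with that of αACBP under vehicle, so that a low value in that group enters both. For the interaction, the difference between the CORT effects under the 2 antibodies, both tools called 0 members. There edgeR called 0.143% of all genes and DESeq2 1.31%, and 10 members passed an unadjusted p of 0.05 against 10.6% of all genes.

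Median log2 fold changes of the 37 members were small in every comparison. The median was −0.11 with CORT under isotype and 0.11 with αACBP under CORT, where the medians of all genes were 0.00 and 0.01. It was 0.20 with CORT under αACBP and −0.14 with αACBP under vehicle, where all genes had medians of 0.01 and −0.02. For the interaction it was 0.26, against 0.03 for all genes. Members whose 2 groups did not overlap were C6 with CORT under isotype (5.04% of all genes), and C4b, C6 and Cfp with αACBP under CORT (3.22%). They were C8g with CORT under αACBP (2.74%), and F7 and Proc with αACBP under vehicle (7.13%).

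**Figure D2:**
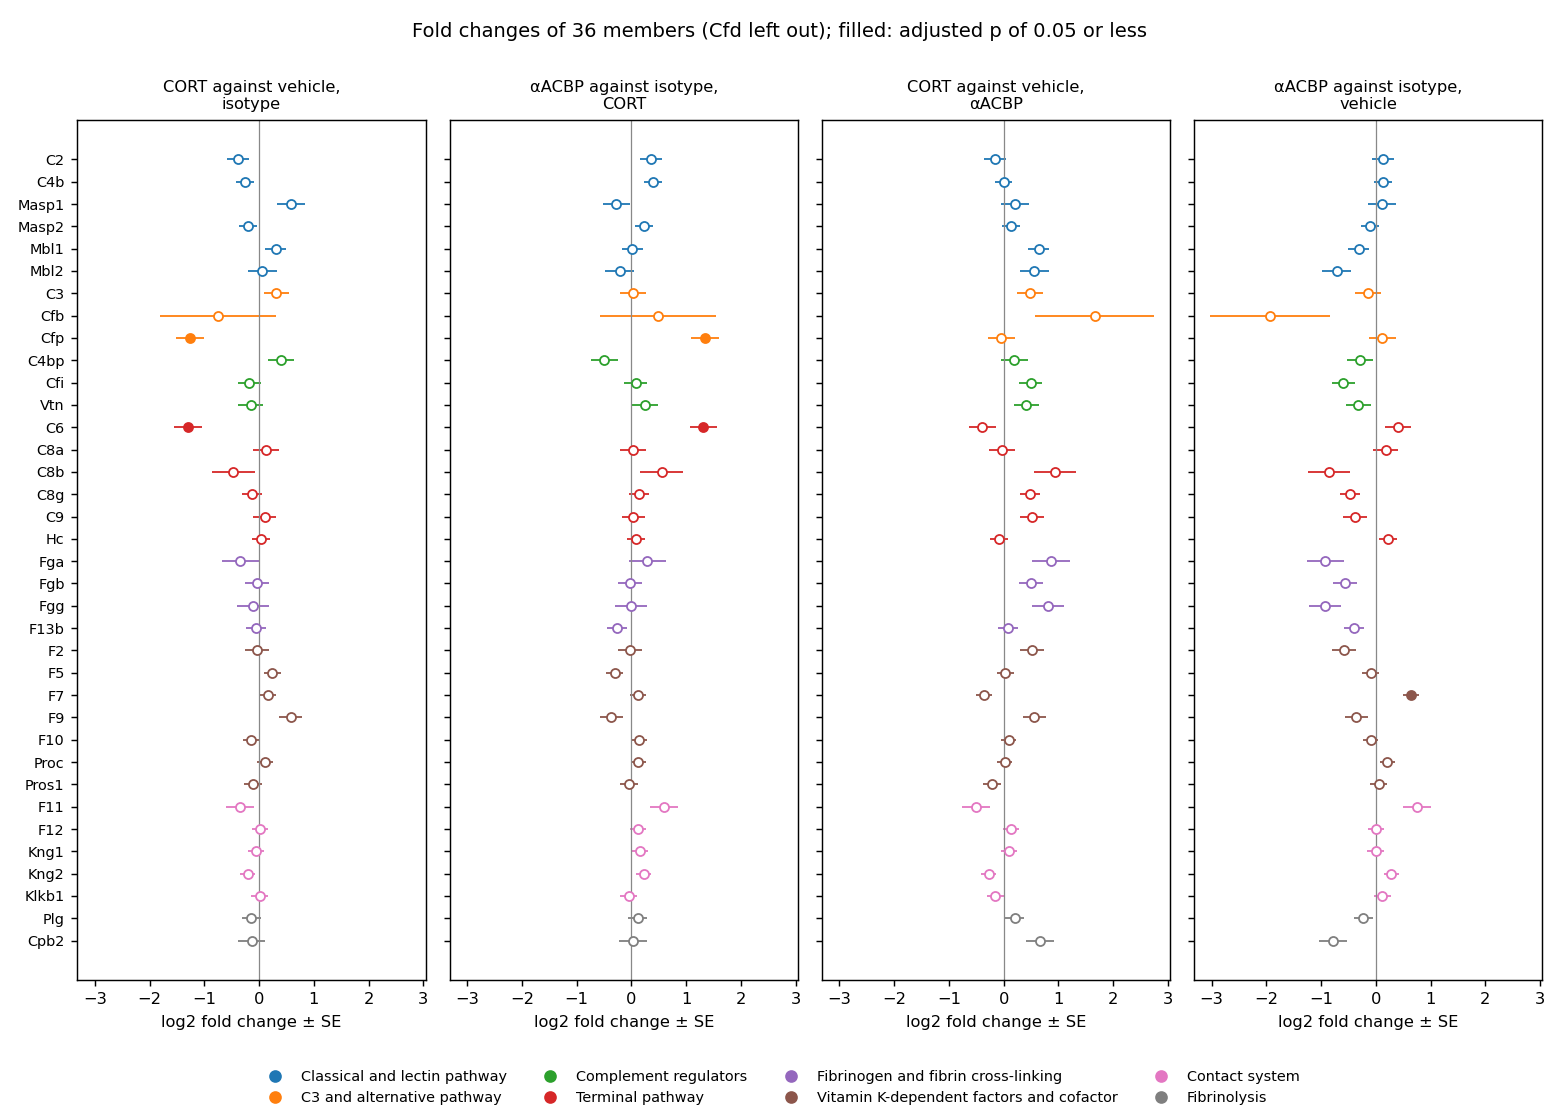
Log2 fold change ± SE from the edgeR model for 36 members in 4 comparisons, coloured by role group, with filled points for an adjusted p of 0.05 or less. Cfd is left out because its fitted fold change rests on groups at or near 0 counts. C6 and Cfp are the filled points in the first and second panels, and F7 is the filled point in the panel for αACBP under vehicle.

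The 6 members of the classical and lectin pathways were C2 and C4b, which form the classical C3 convertase, the mannose-binding lectins Mbl1 and Mbl2, and their proteases Masp1 and Masp2. None of the 6 passed the test in any of the 5 comparisons. With CORT under isotype their log2 fold changes lay between −0.39 and 0.58, and the largest was that of Masp1. Masp1 stood at 10.7, 7.95, 9.54, 11.9 and 6.89 CPM in the 5 Isotype + Vehicle livers and at 12.2, 15.4, 11.3, 17.01 and 14.6 CPM in the Isotype + CORT livers. Under αACBP it stood at 11.4, 5.25, 12.0, 13.9 and 8.11 CPM with vehicle and at 7.86, 12.9, 10.5, 14.7 and 12.3 CPM with CORT. The Isotype + CORT livers were high for Masp1, but 1 Isotype + Vehicle liver lay among them (log2 fold change 0.58 ± 0.25 SE, edgeR adjusted p = 0.241).

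C4b, the active mouse C4, had 1579, 1693, 1697, 1979 and 1516 CPM in Isotype + Vehicle and 1143, 1476, 1575, 1424 and 1424 CPM in Isotype + CORT. It had 2061, 1935, 1818, 1873 and 1559 CPM in αACBP + Vehicle and 1641, 2534, 1747, 1669 and 1642 CPM in αACBP + CORT. Every αACBP + CORT liver was above every Isotype + CORT liver, although the difference did not pass the test over all genes (log2 fold change 0.39 ± 0.16 SE, edgeR adjusted p = 0.296). The neighbouring copy C4a, known in the mouse as sex-limited protein, shares 11.2% of the 100-base words of the C4b transcripts, so that some read pairs of either gene may have been counted on the other. C4a had group means between 11.2 and 16.3 CPM and did not pass the test in any comparison.

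Mbl1 and Mbl2, which share 0% of such words, had their lowest group means in αACBP + Vehicle. Mbl1 had a log2 fold change of 0.64 ± 0.19 SE with CORT under αACBP (edgeR adjusted p = 0.141), and Mbl2 one of −0.72 ± 0.26 SE with αACBP under vehicle (edgeR adjusted p = 0.105), and neither passed. For Masp2, 60.3% of the exon bases lie opposite Tardbp, and the strand setting of the counting is not given in the sources used here. Its log2 fold changes lay between −0.20 and 0.23 in the 4 comparisons of groups.

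Of the 4 members of the alternative pathway, properdin, C3, Cfb and Cfd, the convertase-stabilizing properdin was the one that changed with CORT. Cfp stood at 41.6, 74.2, 44.8, 56.1 and 95.8 CPM in Isotype + Vehicle and at 16.4, 18.3, 43.5, 24.9 and 26.8 CPM in Isotype + CORT. It stood at 66.3, 59.3, 90.5, 83.0 and 40.5 CPM in αACBP + Vehicle and at 81.5, 60.0, 63.4, 68.0 and 57.1 CPM in αACBP + CORT. The Isotype + CORT livers were the low ones. One of them, at 43.5 CPM, reached into the range of Isotype + Vehicle, and none reached that of αACBP + CORT.

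Cfp fell with CORT under isotype (62.5 ± 22.6 against 26.0 ± 10.7 CPM, SD, n = 5 each) by 1.27 ± 0.25 SE on the log2 scale (edgeR adjusted p = 0.00518). With αACBP under CORT it rose to 66.0 ± 9.58 CPM, by a log2 fold change of 1.34 ± 0.25 SE (edgeR adjusted p = 0.0072). With CORT under αACBP, its log2 fold change was −0.04 with a 95% interval of −0.57 to 0.48. The interaction itself was 1.22 ± 0.35 SE and did not pass (edgeR adjusted p = 0.142). Without Isotype + CORT replicate 3, the liver at 43.5 CPM, the interaction had an adjusted p of 0.0375. That was the 1 of 28 alternative fits by edgeR or DESeq2 in which it passed, and the highest adjusted p was 0.285.

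Kupffer cell markers moved with Cfp. Their summed level over 8 genes was 327.6 to 636.8 CPM in Isotype + Vehicle and 122.3 to 360.7 CPM in Isotype + CORT. It was 452.9 to 768.4 CPM in αACBP + Vehicle and 441 to 600.8 CPM in αACBP + CORT. Of the 8 markers 5 fell with CORT under isotype, where 1.86% of all genes fell. With αACBP under CORT 2 rose, where 0.635% of all genes rose. None of the 8 was at 0 in any liver. Summed markers of lymphocytes were also lower with CORT under isotype, at 1.16 to 12.5 CPM against 15.2 to 31.2 CPM, and those of neutrophils were at 6.26 to 12.2 CPM against 12.2 to 23.4 CPM. Lymphocyte markers were at 13.4 to 29.7 CPM in αACBP + Vehicle and 4.71 to 18.4 CPM in αACBP + CORT. Neutrophil markers were at 9.58 to 21.4 CPM in αACBP + Vehicle and 11.7 to 20.1 CPM in αACBP + CORT. Across the 20 livers, with each group centred on its own mean, Cfp and the Kupffer cell markers correlated at r = 0.827 (Spearman's rho 0.829, adjusted permutation p = 0.00091 and 0.00108) and at r = 0.796 without the 2 livers farthest from the median of the markers. The part of Kupffer cells or of the other cell types in the Cfp result was not tested.

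Cfd, the protease that activates factor B, was near the limit of detection. Its counts were 76, 57, 6, 0 and 68 in the Isotype + Vehicle livers, 0, 15, 0, 0 and 1 in Isotype + CORT, 7, 0, 0, 0 and 19 in αACBP + CORT, and 0 in all 5 αACBP + Vehicle livers. A count of 0 allows up to 3 counts. Over the group, 3 counts are 0.0326 CPM against a level of 2.43 CPM in Isotype + Vehicle, a 74.4-fold difference. That ratio covers counting error only and not the spread between livers. With αACBP under vehicle, the fitted log2 fold change of Cfd was −8.43 (edgeR adjusted p = 0.0286). Its confidence interval of −13.12 to −3.73 allows a fall smaller than 74.4-fold. The groups overlapped, since 1 Isotype + Vehicle liver was also at 0. Calls for Cfd were lost without Isotype + Vehicle replicate 1, 2 or 5 and without αACBP + Vehicle replicate 1 or 5, with the highest adjusted p at 0.0834. When only the groups compared were fitted, Cfd did not pass the filter on low counts and was not tested.

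The adipocyte gene Adipoq had 8, 20, 14, 0 and 6 counts in the same Isotype + Vehicle livers and 11 counts in 1 αACBP + CORT liver. It was at 0 in every Isotype + CORT and αACBP + Vehicle liver. Of the other adipocyte markers, Lep was at 0 in all 20 livers and Plin1 and Retn in 16 each. The 6 markers summed to 9.27 to 21.5 CPM in Isotype + Vehicle and 2.96 to 13.2 CPM in αACBP + Vehicle. In Isotype + CORT, where Cfd was also low, they summed to 10.9 to 23.6 CPM, and in αACBP + CORT to 3.55 to 10.1 CPM. Fabp4 alone was at 7.11 to 19.2 CPM in Isotype + Vehicle and at 5.45 to 19.6 CPM in Isotype + CORT. Adipose tissue carried with a liver piece was not tested as a part of the Cfd result.

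C3, the shared centre of all pathways, did not pass the test in any comparison. It stood at 3017 to 5083 CPM in Isotype + Vehicle, and 1 Isotype + CORT liver had 8729 CPM where the other 4 had 4112 to 4948. Cfb was at 0 in 3 αACBP + Vehicle livers and at 0.261 to 3.84 CPM in the other 3 groups, and its log2 fold change of −1.94 ± 1.10 SE with αACBP under vehicle did not pass (edgeR adjusted p = 0.328).

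The terminal pathway assembles C5 (gene Hc), C6, the C8 chains (C8a, C8b, C8g) and C9 into the membrane pore. Of these 6 members C6 changed. C6 stood at 13.5, 25.1, 12.8, 15.5 and 24.0 CPM in Isotype + Vehicle and at 11.01, 5.25, 9.29, 7.56 and 3.87 CPM in Isotype + CORT. It stood at 25.1, 25.1, 28, 21.6 and 20.8 CPM in αACBP + Vehicle and at 21.5, 17.96, 15.5, 15.8 and 21.2 CPM in αACBP + CORT. All 5 Isotype + CORT livers lay below all 15 other livers.

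C6 fell with CORT under isotype (18.2 ± 5.94 against 7.40 ± 2.90 CPM, SD, n = 5 each) by 1.30 ± 0.25 SE on the log2 scale (edgeR adjusted p = 0.00319). With αACBP under CORT it rose to 18.4 ± 2.87 CPM, a log2 fold change of 1.32 ± 0.25 SE (edgeR adjusted p = 0.0072). When the model held only those 2 groups, C6 missed the threshold there (edgeR adjusted p = 0.0571). With CORT under αACBP the log2 fold change was −0.39 with a 95% interval of −0.91 to 0.13, and the interaction was 0.91 ± 0.35 SE (edgeR adjusted p = 0.297). The Kupffer cell markers given for Cfp moved in the same direction between these groups. Within groups they correlated with C6 at r = 0.454 (rho 0.523, adjusted permutation p = 0.166 and 0.0726), and their part in the C6 result was not tested.

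C6 lies on chromosome 15, at 4727067 to 4804045 in GRCm38.p6. The 250 bases before the start given in the RefSeq promoter table are shown because C6 shared the lowest adjusted p of the members with αACBP under CORT with Cfp and had the lower p before adjustment (1.37e-05 against 1.46e-05). That start lies inside the gene span, so that part of the bases shown does as well. Capitals would mark matches to any of 5 motifs searched on both strands from 250 bases before to 50 after the start, and there were none.
C6 (chr15:4726960-4727209, + strand): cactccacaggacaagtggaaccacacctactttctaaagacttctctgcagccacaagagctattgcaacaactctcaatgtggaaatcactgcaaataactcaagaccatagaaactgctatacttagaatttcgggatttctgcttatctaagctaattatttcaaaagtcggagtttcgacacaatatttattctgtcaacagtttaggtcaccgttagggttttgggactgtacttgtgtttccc

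**Figure D3:**
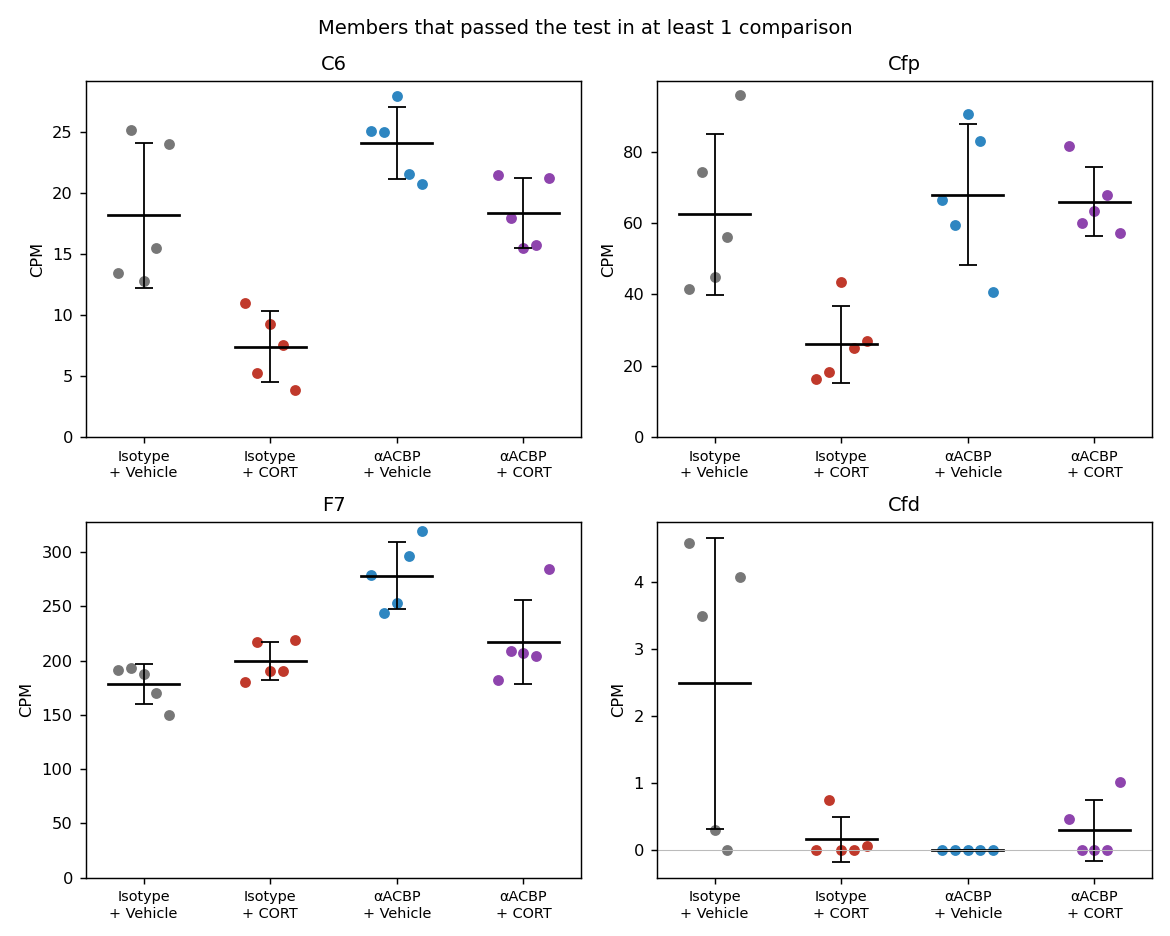
CPM of C6, Cfp, F7 and Cfd in each of the 20 livers by group, with points for livers, a line for the mean and bars for ± SD (n = 5). For C6 all 5 Isotype + CORT livers are below the others, F7 is highest in αACBP + Vehicle, and Cfd is at 0 in all 5 αACBP + Vehicle livers.

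The other 5 terminal members did not pass the test. Under αACBP, C8g had 387, 500, 414, 478 and 192 CPM with vehicle and 526, 636, 542, 529 and 510 CPM with CORT, with no overlap (log2 fold change 0.48 ± 0.19 SE, edgeR adjusted p = 0.259). The value of 192 CPM is that of the liver lowest in hepatocyte markers. C8b had a log2 fold change of −0.86 ± 0.39 SE with αACBP under vehicle (edgeR adjusted p = 0.217), C9 one of −0.38 ± 0.21 SE, and C8a and Hc ones of 0.18 and 0.21.

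The complement regulators in the list were C4bp, which speeds the decay of the classical convertase, the C3b-cleaving protease factor I (Cfi), and Vtn, which binds the forming pore. None of the 3 passed. With CORT under isotype C4bp had the largest log2 fold change of the 3. C4bp stood at 345.1, 370.8, 316.2, 200.6 and 386.9 CPM in Isotype + Vehicle and at 472.6, 271.7, 242.2, 356.0 and 790.2 CPM in Isotype + CORT. It stood at 274.9, 250.1, 257.9, 320.3 and 219.8 CPM in αACBP + Vehicle and at 347.0, 384.0, 245.7, 289.4 and 248.9 CPM in αACBP + CORT. The Isotype + CORT livers were the most spread, and their log2 fold change of 0.40 ± 0.24 SE (edgeR adjusted p = 0.473) rested on the liver at 790.2 CPM, without which it was 0.05. Cfi had a log2 fold change of −0.59 ± 0.21 SE with αACBP under vehicle (edgeR adjusted p = 0.0931).

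Fibrinogen is a hexamer of paired α, β and γ chains, encoded by Fga, Fgb and Fgg in one cluster on chromosome 3. The promoters of the 3 genes are shown because the chains varied together between livers. They are from RefSeq (GRCm38.p6), 250 bases before each start, written 5′ to 3′ on the strand of the gene. Capitals mark matches on either strand to TTCNNNGAA, to the same motif with 4 free bases in place of 3, and to TTNNNCAA, GTTAAT and AGAACA.
Fga (chr3:83025903-83026152, + strand): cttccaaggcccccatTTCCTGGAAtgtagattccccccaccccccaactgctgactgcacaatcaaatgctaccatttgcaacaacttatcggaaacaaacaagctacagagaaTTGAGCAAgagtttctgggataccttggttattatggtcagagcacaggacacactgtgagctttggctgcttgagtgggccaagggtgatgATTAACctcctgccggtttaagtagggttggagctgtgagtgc
Fgb (chr3:83049864-83050113, - strand): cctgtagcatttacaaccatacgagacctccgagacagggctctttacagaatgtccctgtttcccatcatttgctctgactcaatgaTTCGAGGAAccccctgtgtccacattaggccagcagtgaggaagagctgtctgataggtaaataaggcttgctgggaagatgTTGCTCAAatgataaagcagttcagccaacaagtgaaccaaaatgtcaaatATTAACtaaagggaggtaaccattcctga
Fgg (chr3:83007474-83007723, + strand): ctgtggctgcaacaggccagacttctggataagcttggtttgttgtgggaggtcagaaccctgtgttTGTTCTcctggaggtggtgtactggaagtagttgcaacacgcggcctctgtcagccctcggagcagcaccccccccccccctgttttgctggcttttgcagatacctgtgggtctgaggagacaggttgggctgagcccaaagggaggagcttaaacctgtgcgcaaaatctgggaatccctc

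Fga and Fgb each held 1 match to TTCNNNGAA, a spacing bound by STAT3, starting 234 bases before the start in Fga and 162 bases in Fgb. Each also held 1 match to TTNNNCAA, a C/EBP-like motif, at 135 and 80 bases, and 1 to GTTAAT, part of an HNF1 site, at 43 and 29 bases, read on the other strand. Fgg held 1 match to AGAACA, part of a glucocorticoid receptor site, at 183 bases, and C6 held none of the 5. Of the 37 members 29 had a promoter in the table. GTTAAT was in 34.5% of these 29 and in 7.1% of all 32851 promoters of the same length, TTCNNNGAA in 24.1% and 8.3%, TTNNNCAA in 58.6% and 36.7%, AGAACA in 37.9% and 19%, and the motif with 4 free bases in 6.9% and 6.95%. Members were counted by gene, with a match in any promoter of the gene, whereas the 32851 promoters were counted singly. Those promoters were not limited to genes tested here. A match describes letters and not a bound site.

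Fga had the largest fold change of the fibrinogen group with CORT under isotype. Fga stood at 2056, 1210, 1068, 703.7 and 1426 CPM in Isotype + Vehicle and at 856.1, 481.2, 801.3, 1379 and 1556 CPM in Isotype + CORT. It stood at 644.4, 520.1, 802.7, 1070 and 376.2 CPM in αACBP + Vehicle and at 1285, 2115, 749.6, 1198 and 871.8 CPM in αACBP + CORT. The αACBP + Vehicle livers were lowest on average, and every pair of groups overlapped.

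With CORT under isotype the log2 fold changes were −0.35 for Fga (95% interval −1.07 to 0.37), −0.04 for Fgb (−0.51 to 0.43) and −0.11 for Fgg (−0.72 to 0.50). With αACBP under CORT they were 0.29 (−0.42 to 1.01), −0.03 (−0.50 to 0.44) and −0.01 (−0.61 to 0.60). Each of the 6 intervals includes 0.

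With αACBP under vehicle all 3 chains were lower at an unadjusted p of 0.05, and none passed over all genes. Fgg had 2947, 2270, 2054, 1178 and 2465 CPM in Isotype + Vehicle and 1301, 1027, 1189, 1527 and 696.7 CPM in αACBP + Vehicle. Its log2 fold change was −0.93 ± 0.29 SE (edgeR adjusted p = 0.0583), next to −0.92 ± 0.34 SE for Fga (0.115) and −0.57 ± 0.22 SE for Fgb (0.129). Isotype + Vehicle replicate 4, at 1178 CPM, was the one liver of its group within the range of the antibody group, and without it Fgg passed (edgeR adjusted p = 0.0228). Of 19 alternative fits by edgeR or DESeq2, Fgg passed in 5 and did not in 14, with adjusted p between 0.0182 and 0.175. With CORT under αACBP the log2 fold changes were 0.87 ± 0.34 SE for Fga, 0.49 ± 0.22 SE for Fgb and 0.81 ± 0.29 SE for Fgg (edgeR adjusted p = 0.276, 0.342 and 0.217). The comparisons of αACBP under vehicle and of CORT under αACBP share the αACBP + Vehicle livers, so that their low values enter both. F13b, the carrier subunit of the fibrin cross-linking factor XIII, had a log2 fold change of −0.40 ± 0.18 SE with αACBP under vehicle (edgeR adjusted p = 0.209).

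**Figure D4:**
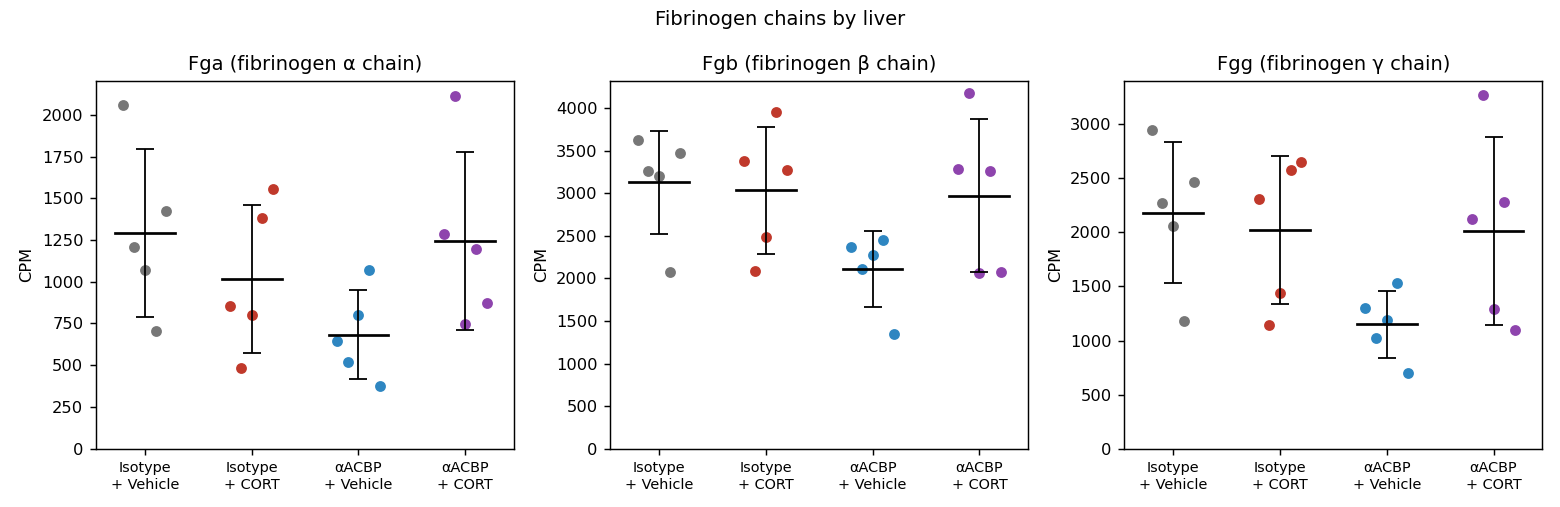
CPM of the fibrinogen chains Fga, Fgb and Fgg in each of the 20 livers by group, with points for livers, a line for the mean and bars for ± SD (n = 5). In all 3 panels the αACBP + Vehicle group has the lowest mean (682.6, 2111 and 1148 CPM), and its livers overlap those of the other groups.

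The 3 chains varied together from liver to liver. With each group centred on its own mean, r across the 20 livers was 0.97 for Fgb and Fgg (rho 0.907), 0.924 for Fga and Fgg (rho 0.928) and 0.882 for Fga and Fgb (rho 0.895). Adjusted permutation p was 4.67e-05 for each r, from the smallest p of 1e-05 that 100000 permutations within groups can give, and at most 9.33e-05 for rho. Without the 2 livers farthest from the median, r was 0.965, 0.897 and 0.842. The chains of the C8 protein were less alike. C8a and C8b, neighbours on chromosome 4, had r = 0.607 (rho 0.51, adjusted permutation p = 0.0124 and 0.0408), and 0.479 without 2 livers. C8b and C8g had r = 0.587 (rho 0.519, adjusted permutation p = 0.0143 and 0.0382) and 0.344 without 2 livers, so that the relation rests in part on those livers. C8a and C8g had r = 0.0791 (rho −0.117, adjusted permutation p = 0.724 and 0.64).

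Hepatocyte markers moved with the fibrinogen chains. Their sum correlated with Fga at r = 0.756, with Fgb at 0.862 and with Fgg at 0.815 (rho 0.68, 0.647 and 0.633, adjusted permutation p of r = 0.00077, 0.000392 and 0.000392, and of rho at most 0.00816), and at 0.695, 0.801 and 0.778 without 2 livers. It correlated with C8b at r = 0.785 (rho 0.626, adjusted permutation p = 0.00091 and 0.0122), and at 0.638 without 2 livers. C8g had r = 0.659 (rho 0.388, adjusted permutation p = 0.0587 and 0.163) and 0.207 without 2 livers, and C8a r = 0.378 (rho 0.256, adjusted permutation p = 0.145 and 0.348). In all, 14 relations were computed. Summed hepatocyte markers, in which Alb weighs most, were 69340 to 122800 CPM in Isotype + Vehicle and 39660 to 94780 CPM in αACBP + Vehicle. None of the 7 markers passed the test between these groups, and 2 had positive and 5 negative log2 fold changes. Their part in the lower fibrinogen of the αACBP + Vehicle livers was not tested.

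**Figure D5:**
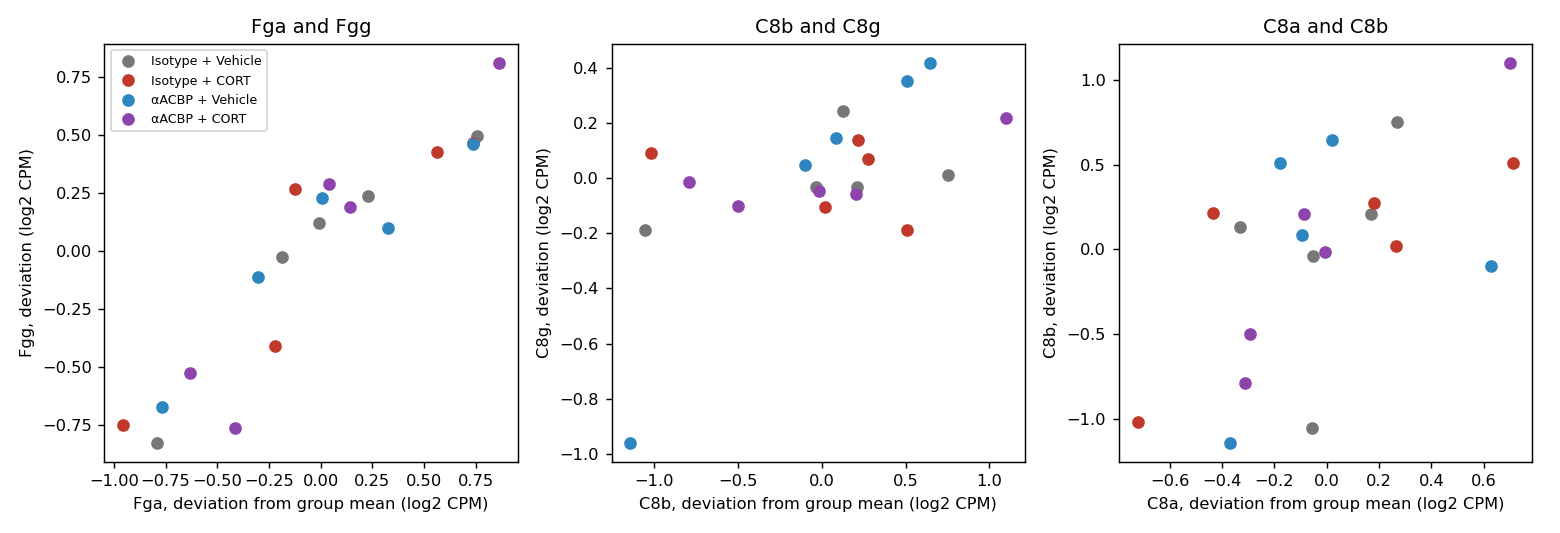
Deviation of each of the 20 livers from its group mean on the log2 CPM scale, for Fga against Fgg, C8b against C8g and C8a against C8b, with points coloured by group. Fga and Fgg lie close to a line (r = 0.924), whereas 1 αACBP + Vehicle liver lies far from the rest in the plot of C8b and C8g.

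The vitamin K-dependent proteases prothrombin (F2), F7, F9, F10 and protein C (Proc), with the cofactors protein S (Pros1) and F5, formed the largest coagulation group. Of these 7, F7, which starts coagulation with tissue factor, changed. F7 stood at 190.9, 193.5, 187.7, 170.2 and 149.9 CPM in Isotype + Vehicle and at 278.8, 243.5, 253.1, 296.2 and 319.4 CPM in αACBP + Vehicle. It stood at 180.4, 217.5, 190.7, 190.8 and 218.8 CPM in Isotype + CORT and at 181.8, 209.0, 207.2, 204.2 and 284.0 CPM in αACBP + CORT. All 5 αACBP + Vehicle livers lay above all livers given the isotype antibody, and 1 αACBP + CORT liver lay among them.

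F7 rose with αACBP under vehicle from 178.4 ± 18.4 to 278.2 ± 31.0 CPM (SD, n = 5 each), a log2 fold change of 0.64 ± 0.15 SE (edgeR adjusted p = 0.0152). The call was lost without Isotype + Vehicle replicate 5 (edgeR adjusted p = 0.0665). Under CORT the antibody's log2 fold change of F7 was 0.12, with a 95% interval of −0.19 to 0.44. The interaction was −0.52 ± 0.21 SE and did not pass (edgeR adjusted p = 0.327). F7 and F10 are neighbours on chromosome 8, at 13025506 to 13035809 and 13037308 to 13056676 in GRCm38.p6, and F10 had a log2 fold change of −0.10 ± 0.14 SE with αACBP under vehicle (edgeR adjusted p = 0.779).

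Proc, the anticoagulant protease, had 824.0, 863.6, 927.3, 817.7 and 868.4 CPM in Isotype + Vehicle and 990.3, 1015, 1062, 962.8 and 941.2 CPM in αACBP + Vehicle. The groups did not overlap, but the log2 fold change of 0.21 ± 0.14 SE did not pass (edgeR adjusted p = 0.427). F2 was lower with αACBP under vehicle, at −0.58 ± 0.22 SE on the log2 scale (edgeR adjusted p = 0.112). F9 had log2 fold changes of 0.57 ± 0.21 SE with CORT under isotype and 0.56 ± 0.21 SE with CORT under αACBP (edgeR adjusted p = 0.138 and 0.239). Log2 fold changes of F5 lay between −0.30 and 0.24, and those of Pros1 between −0.21 and 0.05, over the 4 comparisons.

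The contact system starts coagulation on charged surfaces and frees bradykinin, with F11, F12, prekallikrein (Klkb1) and the kininogens Kng1 and Kng2. None of the 5 passed. F11 stood at 66.1, 92.0, 119.8, 89.2 and 94.8 CPM in Isotype + Vehicle and at 102.7, 99.95, 60.0, 58.3 and 42.7 CPM in Isotype + CORT. It stood at 90.1, 209.8, 140.9, 178.7 and 156.6 CPM in αACBP + Vehicle and at 96.7, 82.5, 85.3, 94.5 and 189.6 CPM in αACBP + CORT. In αACBP + Vehicle 4 of 5 livers lay above all Isotype + Vehicle livers, and all groups overlapped. Log2 fold changes of F11 were 0.75 ± 0.26 SE with αACBP under vehicle, 0.59 ± 0.26 SE with αACBP under CORT and −0.34 ± 0.26 SE with CORT under isotype (edgeR adjusted p = 0.0841, 0.327 and 0.602).

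Kng1 and Kng2 are neighbouring copies on chromosome 16 that share 3.2% of the 100-base words of Kng1 and 4.12% of those of Kng2. Some read pairs of one may therefore have been counted on the other. Kng1 had group means between 2927 and 3255 CPM, and its log2 fold changes lay between −0.06 and 0.15. Kng2 had means of 422.1 ± 35.2 CPM in Isotype + Vehicle, 364.2 ± 24.6 CPM in Isotype + CORT, 513.8 ± 48.5 CPM in αACBP + Vehicle and 426.0 ± 40.5 CPM in αACBP + CORT (SD, n = 5 each). The antibody's log2 fold change of Kng2 was 0.28 ± 0.14 SE under vehicle and 0.23 ± 0.14 SE under CORT (edgeR adjusted p = 0.241 and 0.556). F12 and Klkb1 had log2 fold changes between −0.16 and 0.13.

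Fibrinolysis was represented by Plg, the precursor of plasmin, and Cpb2, a carboxypeptidase that protects fibrin from it. Neither passed. Plg stood at 2371, 2027, 2145, 1495 and 1911 CPM in Isotype + Vehicle and at 1815, 1626, 1838, 2280 and 1468 CPM in Isotype + CORT. It stood at 1705, 1833, 1945, 1809 and 1199 CPM in αACBP + Vehicle and at 2112, 2403, 1693, 1871 and 1691 CPM in αACBP + CORT. The 4 groups overlapped throughout, and with CORT under isotype the log2 fold change was −0.14 ± 0.18 SE (edgeR adjusted p = 0.813). Cpb2 was lower in αACBP + Vehicle, at −0.78 ± 0.25 SE on the log2 scale against Isotype + Vehicle (edgeR adjusted p = 0.0678).

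Among 49 other complement and coagulation genes that were tested, 4 fell and 1 rose with CORT under isotype, with a median log2 fold change of −0.33. Of all 16071 genes tested, 299 fell and 215 rose there. The classical pathway starters C1qa and C1qc had log2 fold changes of −1.40 ± 0.25 SE and −1.83 ± 0.39 SE (edgeR adjusted p = 0.00182 and 0.0121). The complement receptors Vsig4 and Itgb2 had ones of −1.10 ± 0.27 SE and −1.39 ± 0.35 SE (edgeR adjusted p = 0.0197 and 0.0228), and Vsig4 is also one of the Kupffer cell markers. The classical pathway protease C1s1 rose by a log2 fold change of 0.62 ± 0.16 SE (edgeR adjusted p = 0.0344). With αACBP under CORT, 1 of the 49 rose, C1qa, by 1.24 ± 0.25 SE (edgeR adjusted p = 0.0116), and 0 fell, where 0.635% of all genes rose. With αACBP under vehicle 5 of the 49 fell and 0 rose, where 2.36% of all genes fell and 2.78% rose, and the median of the 49 was −0.35.

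Of 19 acute-phase genes outside the list, 1 rose with CORT under isotype and 4 with αACBP under CORT, and 0 fell in either. Of all 16071 genes tested, 215 rose with CORT under isotype and 102 with αACBP under CORT. Lcn2 rose from a mean of 18.4 to 308.8 CPM with CORT (log2 fold change 4.07 ± 0.69 SE, edgeR adjusted p = 0.00358). Serum amyloid genes Saa2, Saa1 and Saa3 rose with αACBP under CORT by log2 fold changes of 5.36 ± 0.91 SE, 4.24 ± 0.74 SE and 2.51 ± 0.50 SE, and the orosomucoid Orm2 by 2.27 ± 0.48 SE (edgeR adjusted p between 0.00871 and 0.0279). With αACBP under vehicle 4 of the 19 rose and 0 fell, where 2.78% of all genes rose. In that same comparison, the fibrinogen chains, which belong to the acute-phase proteins as well, had the negative log2 fold changes given above.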

How the data were processed

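Total RNA of 20 frozen livers was sequenced. Read pairs were aligned by HISAT2 and assigned to genes by HTSeq, and the authors deposited these counts without normalization. The paper's methods name union mode, with features that are not unique included. Gm20547 and the Klkb1 row that was not tested held 0 counts, although they share exon bases with counted rows on the same strand. How pairs on shared exons were counted was not tested, and levels of C2, Cfb and Klkb1 may be too low. The labels name the mm10 build and the paper's methods GRCm39. The annotation release and the strand setting are not given in the sources used here, so that overlapping and antisense genes are uncertain. Lines for pairs counted on no gene were left out, and 0 columns were unused.

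Counts were tested in R 4.3.3 with the quasi-likelihood test of edgeR 4.0.16 (TMM, default filter on low counts, robust estimation, 1 model of the 4 groups without covariates, 16 residual degrees of freedom). P-values were adjusted over all 16071 genes by the Benjamini-Hochberg method, and the threshold was an adjusted p of 0.05. The study's methods state a P of 0.05, with no adjustment named, and an absolute log2 fold change of 1. Standard errors were derived from the F statistic, and intervals are at 95%. The programs were tested on simulated counts. Alternatives were DESeq2 1.42.0 (size factors and Wald test), other filters and library sizes, the replicate number as a block, only the groups compared, and each liver left out.

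In the liver with the smallest normalized library, 3 counts are 0.205 CPM, a floor that covers counting error only. The labels give no batch. No 2 livers were alike within counting noise. Correlations used group-centred log2 CPM with a prior count of 2 and 100000 permutations within groups. Members and lists were chosen with earlier results of these data known. Members that passed in any comparison were given liver by liver, as was, in each role group without one, the member with the largest fold change with CORT under isotype. Of other genes, Fkbp5 and up to 5 per list with the lowest adjusted p in the comparisons of CORT under isotype or αACBP under CORT were named. Exon lengths (all annotated exons of a gene merged) and overlaps are from GENCODE M39 and promoters and coordinates from RefSeq (GRCm38.p6).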

Additional observations from a re-analysis of the deposited data

Results flagged for a closer look

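Within groups of 5 livers, 17 values of single members stood apart from the other 4 livers by Dixon's criterion, of 147 combinations of member and group that were examined. Chance flags about 1 in 20. Values are in CPM.

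In αACBP + CORT replicate 2, complement genes stood high together: C4b at 2534 (others 1641 to 1747), C8a at 409.8 (203.2 to 250.9), C8g at 636.4 (510.2 to 541.8) and C9 at 271.2 (113.9 to 149.7). That liver was the highest of its group in 22 of 37 members. In Isotype + CORT replicate 5, C3 was high at 8729 (others 4112 to 4948), F13b was high at 143.6 (77.7 to 96.7) and Proc was low at 745.7 (928.5 to 998.1). In αACBP + Vehicle replicate 5, the liver lowest in hepatocyte markers, Mbl1 was low at 76.9 (146 to 172.5), F12 at 443.1 (565.6 to 581.7) and Vtn at 953.2 (2664 to 3017). In Isotype + Vehicle replicate 4, the next lowest in hepatocyte markers, Fgb was low at 2080 (3209 to 3621) and Hc was high at 885.5 (652.1 to 676.9). In αACBP + CORT replicate 5, F7 was high at 284 (181.8 to 209) and F11 at 189.6 (82.5 to 96.7). That liver was the lowest of its group in 15 of 37 members and the highest in 6. F13b was high at 126.8 in Isotype + Vehicle replicate 5 (86.5 to 97.1), and Masp2 was low at 318.6 in αACBP + Vehicle replicate 1 (418.5 to 439.7). Cfd was at 0.751 in Isotype + CORT replicate 2, where the others had at most 0.0645.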

How the results depend on the processing

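The calls of C6 and Cfp with CORT under isotype held in all 10 fits that left out 1 liver (2 members each time) and under every other filter, scaling and test run at an adjusted p. With αACBP under CORT both held without any 1 liver (2 members), and when only the groups compared were fitted 1 member was called, Cfp. An unadjusted p gave 5, 4 and 15 members for CORT under isotype, αACBP under CORT and CORT under αACBP, 14 for αACBP under vehicle and 10 for the interaction. With αACBP under vehicle, the 2 calls became 4 in DESeq2's Wald test (Cfd, Cpb2, F7 and Fgg), which called 8.08% of all genes there. They became 3 when only the groups compared were fitted (F11, F7 and Fgg), 3 with at least 10 counts in every liver (Cpb2, F7 and Fgg, with 35 members tested and Cfd and Cfb removed) and 1 with the fold limit (Cfd). Shares of all genes were not computed for those counts of 3 or for the fits without 1 liver. Without 1 liver the count lay between 0 (without Isotype + Vehicle replicate 5) and 7 (without Isotype + Vehicle replicate 4: Cfd, Cfi, Cpb2, F2, F7, Fgg and Mbl2), was 5 without αACBP + Vehicle replicate 4, and was 1 without Isotype + Vehicle replicate 1 or 2 or αACBP + Vehicle replicate 1 or 5. The interaction gave 0 to 1 members without 1 liver and CORT under αACBP gave 0. Of the log2 fold changes of single members, 628 values under alternatives kept direction and side of the threshold, 15 newly passed, 7 no longer passed and 0 reversed. Leaving out both livers lowest in hepatocyte markers, chosen after seeing the data, kept 2, 2, 0, 2 and 0 calls. Other scalings moved the median of all genes by under 0.1.

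With the replicate number as a block the counts were 2, 2, 0, 2 and 0 as without it. Same-numbered livers are from different mice, their deviations correlated between −0.0999 and 0.0969, and 4 of 20 livers were closest to their own number, so that the numbers were not taken to pair the samples. Depth limits Cfd and Cfb, with 249 and 399 counts over all livers.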
